A study of Mus musculus with 6 samples.

Results

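The Cdx genes are the 3 mouse homologues of the fly homeobox gene caudal, and they were followed here on 6 one-colour Agilent arrays as Cdx1, Cdx2 and Cdx4. The members were chosen by gene name with their signals known, so their own levels are given as a description and carry no test. They were found through the transcript accession of each probe, as 3 probes for 3 genes among 41174 probes, whose named ones covered 17015 genes with a usable signal on all 6 arrays. The probes were A_51_P318999 for Cdx1 (NM_009880), A_52_P177490 for Cdx2 (NM_007673) and A_51_P126102 for Cdx4 (NM_007674).

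The arrays held total RNA of 3 cell lines of strain 129: epiblast stem cells (EpiSCs) derived from embryos at embryonic day 5.5 (E5.5 EpiSC), EpiSCs derived at day 3.5 (E3.5 EpiSC), and mouse embryonic stem (mES) cells, also labelled day 3.5. Each line was measured after SB431542, given at 20 µM daily for 4 days, and without it, which makes 6 groups of 1 array. SB431542 is a small-molecule inhibitor of the Activin, Nodal and TGF-beta receptor kinases. All groups shared a Knockout DMEM medium with KSR. No group has a replicate, so a difference between 2 arrays compares 2 samples of single lines and cannot be set against the spread of a group.

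Cdx proteins are transcription factors that give cells of the posterior embryo their position along the axis, largely by activating Hox genes, and they are themselves induced by Wnt, FGF and retinoic acid signals. Cdx2 has an earlier role in the trophectoderm, the outer layer of the blastocyst that gives rise to the placenta, where it and the pluripotency factor Oct4 (Pou5f1) repress each other. Cdx1 and Cdx2 act again in the intestinal epithelium, and Cdx4, an X-linked gene, acts with Cdx1 in embryonic blood formation.

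The stretches just upstream of the Cdx2 and Cdx4 transcription starts are shown because both hold the letters of the octamer, ATGCAAAT, which POU factors such as Pou5f1 recognise. They are the 250 bases before the start in RefSeq, build GRCm38.p6, at chr5:147307250-147307499 on the minus strand for Cdx2 and at chrX:103321148-103321397 on the plus strand for Cdx4. Capitals mark the octamer.
Cdx2: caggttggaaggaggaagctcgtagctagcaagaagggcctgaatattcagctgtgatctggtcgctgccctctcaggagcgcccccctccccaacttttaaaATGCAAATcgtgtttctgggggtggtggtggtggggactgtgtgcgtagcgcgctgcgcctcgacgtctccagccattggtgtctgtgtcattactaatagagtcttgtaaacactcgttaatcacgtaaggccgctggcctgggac
Cdx4: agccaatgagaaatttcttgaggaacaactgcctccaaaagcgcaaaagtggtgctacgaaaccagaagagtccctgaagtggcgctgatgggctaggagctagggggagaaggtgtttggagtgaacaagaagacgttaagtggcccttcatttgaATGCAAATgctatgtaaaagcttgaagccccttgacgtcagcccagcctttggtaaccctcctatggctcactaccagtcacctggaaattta

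The octamer lay 147 to 140 bases upstream of the start in Cdx2 and 93 to 86 bases upstream in Cdx4, on the strand of the gene in both. With both strands searched, 526 of 32851 promoter windows of this length held it, or 1.60%. The octamer was searched after the windows had been read. Neither the TCF/LEF letters CTTTGAT, held by 3.21% of windows, nor the SMAD palindrome GTCTAGAC, held by 0.167%, was found in the Cdx2 or Cdx4 window on either strand. A match is a description of the sequence, and its absence says only that these letters are not in this window. The Cdx1 window is not given here, so whether it holds any of these letters is not stated.

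Levels are log2 signals minus the log2 of the array's 75th percentile, so that 0 is a signal brighter than most probes have. By the mark of the scanner software, 82.6% to 85.7% of gene spots stood well above background, 0 were saturated, and repeat spots of a probe had a median coefficient of variation of 5.42% to 7.76%. The E3.5 EpiSC array and the E3.5 EpiSC + SB431542 array each had a slide of its own, while the other 4 arrays shared 1 slide, so for the E3.5 line slide and sample cannot be told apart. The naive markers went with the labels on every array, and the primed markers on the untreated ones. The summed level of 5 naive markers (Zfp42, Esrrb, Klf4, Tbx3, Dppa3), in multiples of the 75th percentile, was 1.32 to 2.17 on the 4 EpiSC arrays against 100.2 and 133 on the 2 mES arrays. That of 5 primed markers (Fgf5, Otx2, Pou3f1, Fgf8, T) was 50.6 in E5.5 EpiSC and 39.3 in E3.5 EpiSC, against 12.3 in mES. With SB431542 the primed sum was 5.67 in E5.5 EpiSC, 3.22 in E3.5 EpiSC and 6.56 in mES. Both treated EpiSC arrays thus lay below both mES arrays in this sum, which is linear and weighs the brightest gene most. Not every marker followed it. T was at -3.68 in E5.5 EpiSC + SB431542 and -3.64 in E3.5 EpiSC + SB431542, above its -4.07 in mES + SB431542.

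Cdx2 was the member with the widest range. Its log2 level was -7.95 in E5.5 EpiSC + SB431542 and -4.28 in E5.5 EpiSC, -7.17 in E3.5 EpiSC + SB431542 and 0.61 in E3.5 EpiSC, and -5.47 in mES + SB431542 and -4.58 in mES. The E3.5 EpiSC array thus stood alone at a high level, 3 arrays lay close to each other at a low level, and both treated EpiSC arrays were not well above background. In the scanner's own units the E3.5 EpiSC spot had an intensity of 1825, with a spot error of 182 from the scanner software, against 12.5 with an error of 3.90 after SB431542. The spot error covers the measurement of 1 spot and not the spread between cultures.

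**Figure D1:**
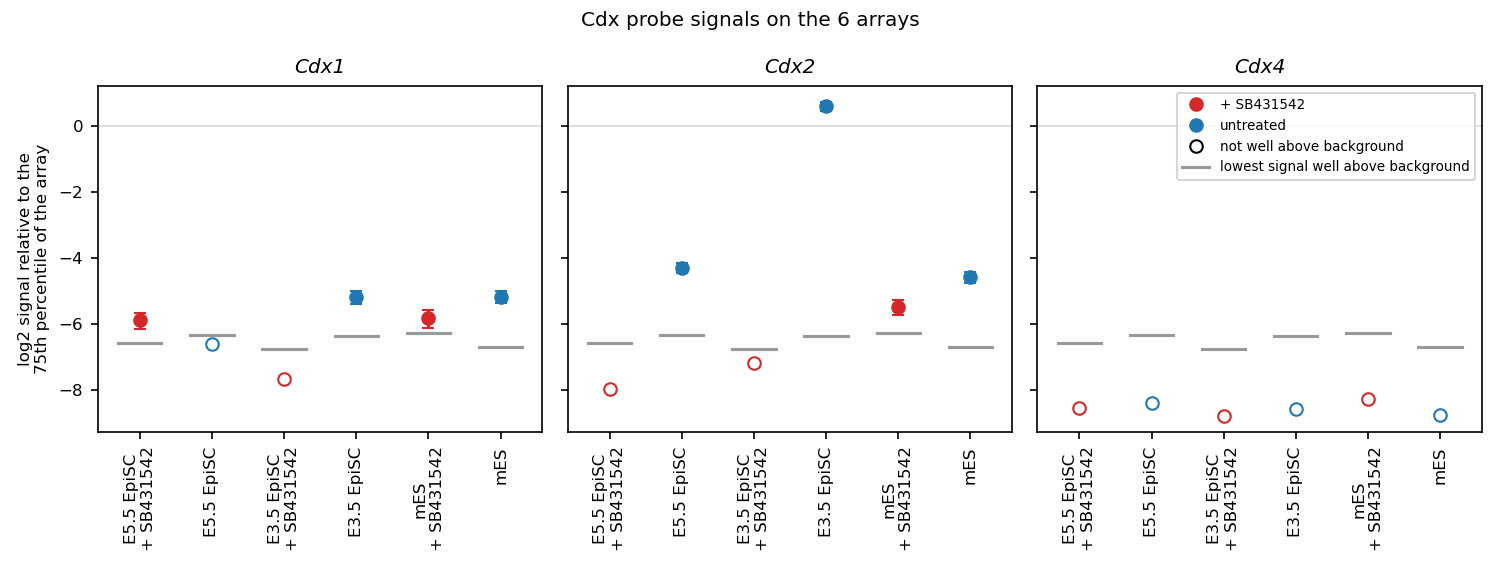
Log2 signal of the Cdx1, Cdx2 and Cdx4 probes, set against the array's 75th percentile, on each of the 6 arrays. Bars show the scanner's spot error, open points are not well above background, and grey dashes mark the lowest signal well above background on that array; Cdx2 in E3.5 EpiSC, at 0.61, is the sole Cdx point above 0.

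Between the untreated lines, Cdx2 was higher in E3.5 EpiSC than in mES by 5.19 ± 0.22 (log2 difference with spot error), or 36.4-fold. Of the 15118 genes well above background on both arrays, 4 including Cdx2 were at least this much higher in E3.5 EpiSC. Cdx2 in E5.5 EpiSC differed from mES by 0.29 ± 0.23, or 1.23-fold. In E5.5 EpiSC it was lower than in E3.5 EpiSC by 4.89 on the log2 scale (-4.89 ± 0.22), or 29.7-fold, and 4 of 15026 genes including Cdx2 were at least this much lower.

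Across all 6 arrays, the E3.5 EpiSC level of Cdx2 exceeded its next highest level, that in E5.5 EpiSC, by 4.89. Of 15298 genes well above background on the E3.5 EpiSC array, 1, Cdx2 itself, had a margin this wide over its 5 other arrays, and 79 had a margin of at least 2-fold. This count was made after the values of Cdx2 were seen. In order of level, E5.5 EpiSC, mES and mES + SB431542 followed E3.5 EpiSC; the first of these neighbours, E5.5 EpiSC and mES, differed by 0.29, close to the spot error of 0.23. The next ones, mES + SB431542 and mES, differed by -0.89 ± 0.28, and the order of the 2 arrays at background is not measured.

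With SB431542, Cdx2 was lower in all 3 lines. In E3.5 EpiSC the treated array was at least 165-fold lower than the untreated one, a bound set against the lowest signal well above background, and the log2 difference as measured was -7.78 ± 0.47. In E5.5 EpiSC it was at least 4.88-fold lower, with a log2 difference as measured of -3.67 ± 0.83. In mES it was 1.86-fold lower (-0.89 ± 0.28), and both mES arrays were well above background. With the normexp background correction, which raises weak signals, the log2 differences were -5.34 in E3.5 EpiSC, -1.15 in E5.5 EpiSC and -0.34 in mES. Because both treated EpiSC signals lie at background, how far Cdx2 lay below that level in either line was not measured, and the bounds do not rank the lines beyond their untreated levels. Whether fewer Cdx2-expressing cells or less Cdx2 RNA per cell lies behind a difference in such bulk samples cannot be told apart.

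Cdx1 had a narrow range near background. Its log2 level was -5.88 in E5.5 EpiSC + SB431542 and -6.61 in E5.5 EpiSC, -7.65 in E3.5 EpiSC + SB431542 and -5.17 in E3.5 EpiSC, and -5.80 in mES + SB431542 and -5.16 in mES. The E5.5 EpiSC and E3.5 EpiSC + SB431542 arrays were not well above background, and the other 4 were, at intensities of 23.0 to 38.7 with spot errors of 4.30 to 4.83. E3.5 EpiSC and mES, the 2 arrays with the highest Cdx1 level, differed by -0.01 ± 0.26 (E3.5 EpiSC minus mES).

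With SB431542, Cdx1 was at least 3.0-fold lower in E3.5 EpiSC (-2.48 ± 0.64 as measured) and 1.56-fold lower in mES (-0.64 ± 0.33). In E5.5 EpiSC it was at least 1.35-fold higher (0.72 ± 0.47), against an untreated signal not well above background. Cdx1 in E5.5 EpiSC was at least 2.22-fold lower than in mES and at least 2.21-fold lower than in E3.5 EpiSC. All of these are differences between weak signals. With normexp the log2 differences with SB431542 were -0.99 in E3.5 EpiSC, -0.16 in mES and -0.08 in E5.5 EpiSC, the last with its sign turned, and E5.5 EpiSC differed from mES by -0.30 and from E3.5 EpiSC by -0.34.

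Cdx4 was not well above background on any of the 6 arrays. Its intensities ran from 3.13 to 4.14, each about equal to its own spot error, and its log2 levels ran from -8.79 to -8.28. Cdx4 RNA was therefore not detectable with this probe, and no fold is given for it.

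Read against all genes, the count of Cdx probes past 2-fold was as follows, with the rule applied to signals as measured and to genes that the brighter array held well above background. In E5.5 EpiSC with SB431542 against without, 1 of 2 probes compared (Cdx2) was lower, where 9.07% of all genes were and 15.8% passed either way. In E3.5 EpiSC with SB431542 against without, 2 of 2 (Cdx1 and Cdx2) were lower, where 20.1% of all genes were and 31.9% passed either way. In mES with SB431542 against without, 0 of 2 passed, where 2.61% of genes passed either way and 1.16% were lower. Among untreated arrays, 1 of 2 (Cdx1) was lower in E5.5 EpiSC than in mES (10.7% of genes, 22.6% either way), 1 of 2 (Cdx2) was higher in E3.5 EpiSC than in mES (10.9%, 23.5% either way), and 2 of 2 were lower in E5.5 EpiSC than in E3.5 EpiSC (3.86%). As the members were chosen with these values known, these shares are the setting for the counts and nothing is read from them.

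The genes whose profile over the 6 arrays came closest to that of Cdx2 were Ltb, which encodes the membrane cytokine lymphotoxin beta, Nt5e, an ectonucleotidase, AI661453, Epha1, an ephrin receptor, and Krt19, a keratin of simple epithelia. Each profile was set to its own mean, and the root mean square difference from Cdx2 ran from 1.01 for Ltb to 1.28 for Krt19, against a median of 2.74 over 16154 genes and a standard deviation of 2.76 of the Cdx2 profile itself. All 5 were highest in E3.5 EpiSC, which follows largely from their choice by likeness to Cdx2. Krt19 had a log2 level of -2.54 in E5.5 EpiSC + SB431542 and -0.39 in E5.5 EpiSC, -1.83 in E3.5 EpiSC + SB431542 and 2.38 in E3.5 EpiSC, and -1.77 in mES + SB431542 and -1.60 in mES. Relative to its own mean, it was the closest of these 5 to Cdx2 in E5.5 EpiSC. With signals below the lowest one well above background set to it, Ltb, Nt5e and Krt19 stayed among the closest 5.

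**Figure D2:**
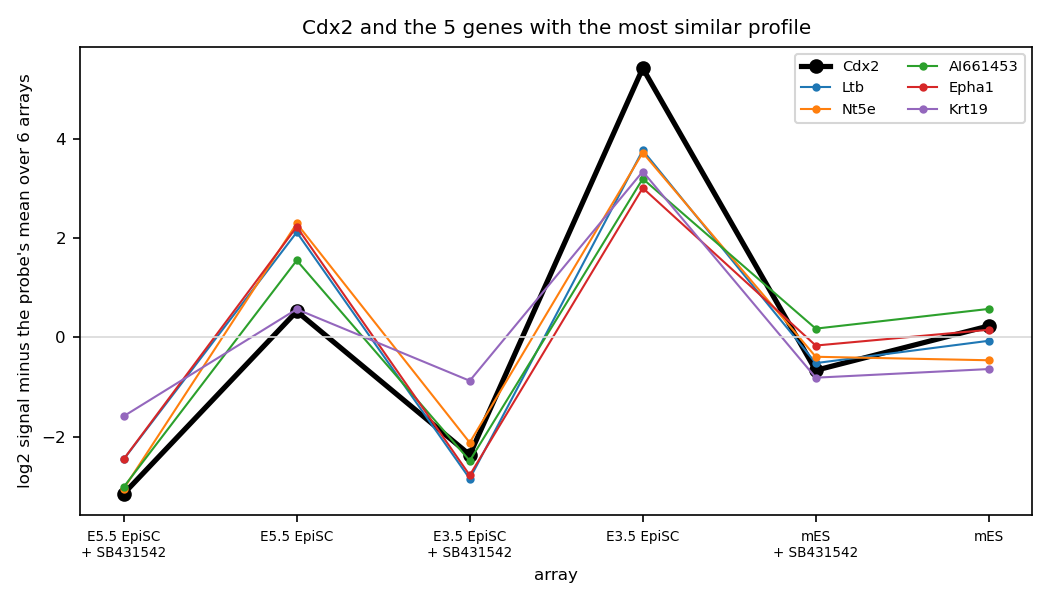
Log2 signal of Cdx2 and of the 5 genes with the smallest root mean square difference from it, each minus its own mean over the 6 arrays. All 6 lines peak in E3.5 EpiSC, where Cdx2 lies furthest above its mean, and in each of the 6 the treated EpiSC arrays lie below both untreated EpiSC arrays. The 5 genes were picked for their likeness to Cdx2, so a shared shape is largely set by the choice.

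For Cdx1 the closest profiles were those of Krt33a, Olfr1306, Smr3a, Skap2 and Siglece, at 0.21 to 0.28. None of the 5 remained among the closest once signals below the lowest one well above background were set to it.

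The genes next to Cdx2 on the chromosome, in the RefSeq order of GRCm38.p6, differed less between arrays than Cdx2 did. The nearest measured ones were the ParaHox genes Pdx1, a regulator of pancreas formation, and Gsx1 on one side, and Urad and Flt3, a cytokine receptor, on the other. Between E5.5 EpiSC and E3.5 EpiSC their log2 differences were 0.29 for Pdx1, -0.32 for Gsx1, -0.90 for Urad and -0.16 for Flt3, none past 2-fold, against -4.89 for Cdx2. Between E3.5 EpiSC + SB431542 and E3.5 EpiSC they were -0.87, 0.89, -1.52 and -1.02 in the same order, where the median of all genes was -0.30. The other ParaHox gene, Gsx2, lies elsewhere. It was at -4.30 in E5.5 EpiSC against -3.16 in E3.5 EpiSC, 2.21-fold lower and in the direction of Cdx2, though with normexp 0 of the 3 ParaHox genes passed 2-fold in this pair. Of the 3 ParaHox genes outside the Cdx family, 0 passed the limma test in either tested comparison, and 0 had an unadjusted p under 0.05.

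Among the nearest measured genes of Cdx1 and Cdx4, 1 large difference near Cdx1 was picked, and genes near Cdx4 held larger ones. Camk2a, a kinase subunit gene near Cdx1, was higher in E3.5 EpiSC + SB431542 than in E3.5 EpiSC by 3.18, where Cdx1 was lower.

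Genes that act above or below the Cdx factors were tested in a limma fit over all 16156 genes, in which the 2 EpiSC lines stand as replicates of the class. Untreated EpiSCs against mES called 242 genes (1.5% of those tested), 63 higher (0.39%) and 179 lower (1.11%), and SB431542 in EpiSCs called 338 (2.09%), 144 higher (0.891%) and 194 lower (1.2%), at an adjusted p of 0.05. With the line as a block the counts were 540 and 931, and there the first compares mES with the fitted E3.5 EpiSC level alone. Both counts fell to 0 without either of the 2 treated EpiSC arrays, so no call given here held without both of them. The p-values cover the spread between the 2 EpiSC lines, and the mES groups, with 1 array each, add no spread of their own. The labels do not say that the arrays came from separate cultures, so part of that spread may be technical.

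Among 34 tested signals of the Wnt, FGF and retinoic acid pathways that act upstream of Cdx genes, 3 rose in EpiSCs against mES and 0 fell, with a median of 1.33 against -0.06 for all genes. The 3 were Fgf8, an FGF ligand of the primitive streak and tail bud (4.59 ± 0.36 (SE), limma adjusted p = 0.020), Sp8, a zinc finger factor of limb and tail bud (4.05 ± 0.40, limma adjusted p = 0.030), and Dhrs3, a retinaldehyde reductase (4.87 ± 0.42, limma adjusted p = 0.024). With SB431542 in EpiSCs, 2 rose and 3 fell, with a median of -0.64 against -0.19. Fgf8 fell by 5.83 ± 0.29 (limma adjusted p = 0.023), Dhrs3 fell by 4.46 ± 0.34 (limma adjusted p = 0.025) and the Wnt antagonist Dkk1 fell by 3.43 ± 0.47 (limma adjusted p = 0.048). Fgfr2, an FGF receptor, rose by 4.03 ± 0.35 (limma adjusted p = 0.027) and Crabp2, which carries retinoic acid to its receptors, by 4.09 ± 0.42 (limma adjusted p = 0.034).

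The Wnt ligands did not move as one with Cdx2. Wnt8a had a log2 level of -2.37 in E5.5 EpiSC + SB431542 and 2.45 in E5.5 EpiSC, -5.44 in E3.5 EpiSC + SB431542 and 3.61 in E3.5 EpiSC, and -3.21 in mES + SB431542 and -1.12 in mES. It was thus, like Cdx2, highest in E3.5 EpiSC and lower with SB431542 in every line, but its E5.5 EpiSC level was also high. Wnt3a, a ligand that acts on caudal genes in the tail bud, was higher with SB431542 in both EpiSC lines, at 1.43 against -3.55 in E5.5 EpiSC and at -0.06 against -2.61 in E3.5 EpiSC. The Wnt target Axin2 was likewise higher with SB431542, at 1.74 against -0.22 in E5.5 EpiSC and 1.52 against 0.13 in E3.5 EpiSC, while the Wnt target Sp5 was lower, at -0.12 against 1.61 and at -1.37 against 0.99. Wnt3, the ligand that starts the primitive streak, was at 0.92 against 1.23 in E5.5 EpiSC and at -0.02 against 0.70 in E3.5 EpiSC, and at -4.87 against -2.75 in mES. None of these 5 genes passed the test. Of the retinoic acid enzymes, the degrading Cyp26a1 was lower with SB431542, at -1.29 against 1.55 in E5.5 EpiSC and at -4.37 against -0.58 in E3.5 EpiSC. The synthesising Aldh1a2 differed with SB431542 by under 2-fold in each of the 3 lines. Between the untreated EpiSC lines, Aldh1a2 was 3.33-fold lower in E5.5 EpiSC than in E3.5 EpiSC, while Cyp26a1 was 4.38-fold higher.

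**Figure D3:**
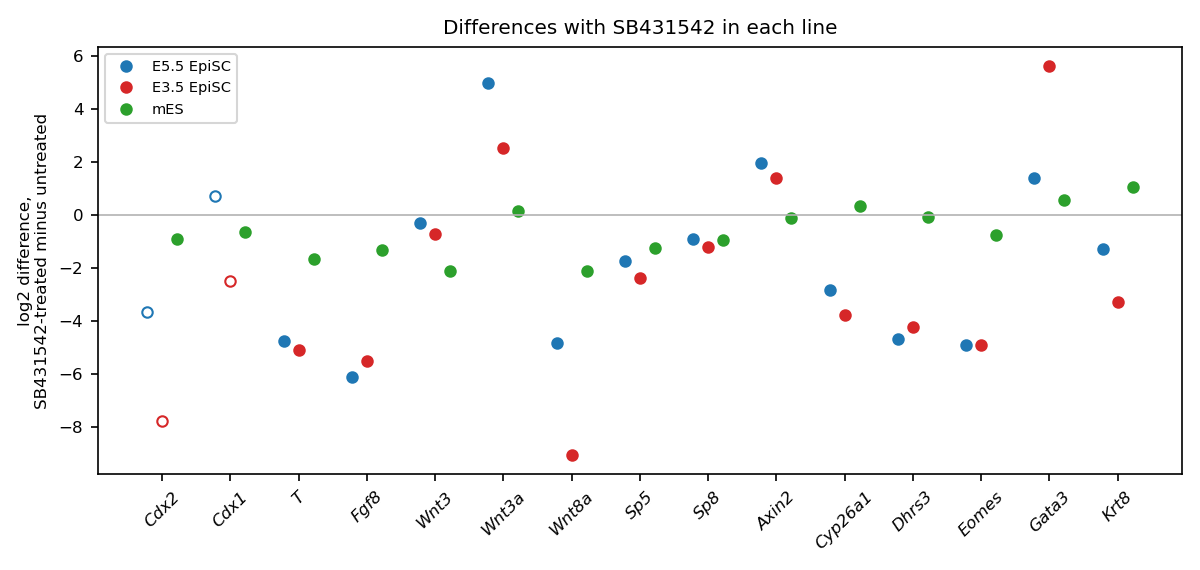
Log2 difference between the SB431542-treated and the untreated array of each line, for Cdx2, Cdx1 and 13 genes named in the text. Open points rest on a signal not well above background. Among the genes below 0 in all 3 lines are Cdx2, T, Fgf8, Wnt8a, Wnt3, Sp5, Sp8 and, narrowly in mES, Dhrs3. Among those above 0 in both EpiSC lines are Wnt3a and Axin2.

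Of 28 tested genes of the caudal epiblast and tail bud, the tissues in which Cdx factors act in the embryo, 3 rose in EpiSCs against mES and 0 fell. They were Fgf8 and Sp8, already given, and T, the brachyury factor of the primitive streak (3.68 ± 0.35, limma adjusted p = 0.028). With SB431542 in EpiSCs T fell by 4.93 ± 0.28 (limma adjusted p = 0.023), Fgf8 fell, and Lfng, a modifier of Notch, rose by 3.04 ± 0.27 (limma adjusted p = 0.027). T was at 1.07 in E5.5 EpiSC and 1.48 in E3.5 EpiSC, so it was at like levels in both lines, where Cdx2 was not. The other caudal factors Tbx6, Nkx1-2 and Evx1 did not pass in either comparison. Between E5.5 EpiSC and E3.5 EpiSC, 4 of 28 genes of this list were higher and 6 lower by 2-fold, with a median of -0.26, where 6.17% and 3.86% of all genes were. With normexp 3 were higher and 2 lower, where 452 and 232 of 15596 genes were.

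The central Hox genes, of paralogue groups 4 to 10, are the best known targets of Cdx factors. Of 20 compared between E5.5 EpiSC and E3.5 EpiSC, 0 were higher and 10 lower by 2-fold (6.17% and 3.86% of all genes), with a median of -0.94 against -0.01 for all genes. Hoxd4 was at -4.55 in E5.5 EpiSC and -1.50 in E3.5 EpiSC, Hoxa5 at -3.63 and -1.74, Hoxb8 at -4.68 and -3.04, and Hoxc9 at -3.79 and -2.15, in the same order. One of the 10, Hoxd8, rests on an E5.5 EpiSC signal not well above background. With normexp 4 of the 20 were lower and 0 higher, with a median of -0.68, where 232 of 15596 genes were lower. Against mES, 12 of 20 were higher in E3.5 EpiSC and 0 lower (10.9% and 12.6% of all genes), and 4 of 19 were higher in E5.5 EpiSC and 0 lower (11.9% and 10.7% of all genes). With normexp 7 of 20 were higher in E3.5 EpiSC, where 1273 of 15826 genes were. In E5.5 EpiSC 0 of 19 were, where 1483 of 15714 genes were. These comparisons share arrays. In E5.5 EpiSC against E3.5 EpiSC, 6 of 8 fibroblast markers were also higher, and their part was not tested.

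With SB431542 in E3.5 EpiSC, where Cdx2 was at least 165-fold lower, 6 of 21 Hox genes were higher and 2 lower by 2-fold (11.8% and 20.1% of all genes), with a median of 0.29 against -0.30. With normexp 4 were higher and 1 lower, where 1235 and 2302 of 15464 genes were. The median was then -0.11, so its sign depends on the background correction. Hoxd4 was at -0.29 in E3.5 EpiSC + SB431542 against -1.50 in E3.5 EpiSC, and Hoxb8 at -2.08 against -3.04. Hoxa5 was at -2.95 against -1.74. With SB431542 in E5.5 EpiSC, 1 of 19 was higher and 5 were lower (6.69% and 9.07% of all genes). With normexp 1 was higher and 1 lower, where 696 and 1046 of 15474 genes were. In the limma test 0 of 21 passed in either comparison, and 1 of 21 had an unadjusted p under 0.05 in each. The Hox genes named here were picked after their values were seen.

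Of 30 tested genes of trophectoderm and trophoblast, 0 rose and 2 fell in EpiSCs against mES, the homeobox gene Rhox9 (-4.14 ± 0.51, limma adjusted p = 0.047) and the Ets factor Spic (-3.80 ± 0.43, limma adjusted p = 0.038). With SB431542 in EpiSCs Eomes, a T-box factor of both trophectoderm and primitive streak, fell by 4.91 ± 0.60 (limma adjusted p = 0.041), Bmp8b, a BMP ligand, fell by 3.06 ± 0.33 (limma adjusted p = 0.034), and Fgfr2 rose. Since Eomes also marks the primitive streak, its levels do not mark trophectoderm alone.

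Among the defining trophectoderm factors other than Cdx2, Elf5 and Gata3 were near background in E3.5 EpiSC, the array with high Cdx2, at -5.85 and -5.90, and Hand1, at -8.26, was not well above it. Eomes, at -1.35 there against -3.47 in mES, and Tfap2c, at 0.01 against 2.75 in mES, were not near background. Gata3 had its lowest level of the 6 arrays in E3.5 EpiSC. The summed level of these 5, in multiples of the 75th percentile, was 0.624 in E5.5 EpiSC + SB431542 and 2.64 in E5.5 EpiSC, 1.08 in E3.5 EpiSC + SB431542 and 1.44 in E3.5 EpiSC, and 9.84 in mES + SB431542 and 6.88 in mES. The sum is linear and weighs the brightest gene most, which was Tfap2c in both E3.5 EpiSC and mES, so it is no score of trophectoderm. Of the 5, Eomes alone was higher in E3.5 EpiSC than in mES. Krt8, a keratin of trophectoderm and other simple epithelia, was highest in E3.5 EpiSC, at 3.85. Gata3 was higher with SB431542 in E3.5 EpiSC, at -0.30 against -5.90, where Cdx2 was lower. Pou5f1 was at 5.88 in E5.5 EpiSC, 5.73 in E3.5 EpiSC and 5.58 in mES. The E3.5 EpiSC array, with Cdx2 at 0.61, thus held both signals, Pou5f1 being far the brighter. Whether the same cells held both cannot be told from a bulk sample. With SB431542, Pou5f1 fell by 10.69 ± 0.42 in EpiSCs (limma adjusted p = 0.023) but was still well above background on both treated arrays, where Cdx2 was not.

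Among 21 tested intestinal genes that Cdx factors regulate, 1 rose in EpiSCs against mES, the iron oxidase Heph (5.02 ± 0.36, limma adjusted p = 0.019), and 0 passed with SB431542 in EpiSCs (limma, 2 at an unadjusted p under 0.05). Isx, Cdh17 and Muc13 were well above background on no array. Heph was at -0.40 in E5.5 EpiSC and -0.56 in E3.5 EpiSC, levels that did not follow those of Cdx2. Among 17 tested blood genes below the Cdx and Hox pathway, those that rose in EpiSCs against mES included the Hox cofactor Meis1 (3.43 ± 0.33, limma adjusted p = 0.028). Meis1 also rose with SB431542 in EpiSCs, by 3.97 ± 0.27 (limma adjusted p = 0.023). Between E5.5 EpiSC and E3.5 EpiSC, 8 of 16 blood genes were higher and 0 lower by 2-fold (6.17% and 3.86% of all genes), with a median of 0.98, opposite in sign to the Hox genes and to Cdx2. With normexp 4 were higher and 0 lower, where 452 and 232 of 15596 genes were, with a median of 0.51.

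**Figure D4:**
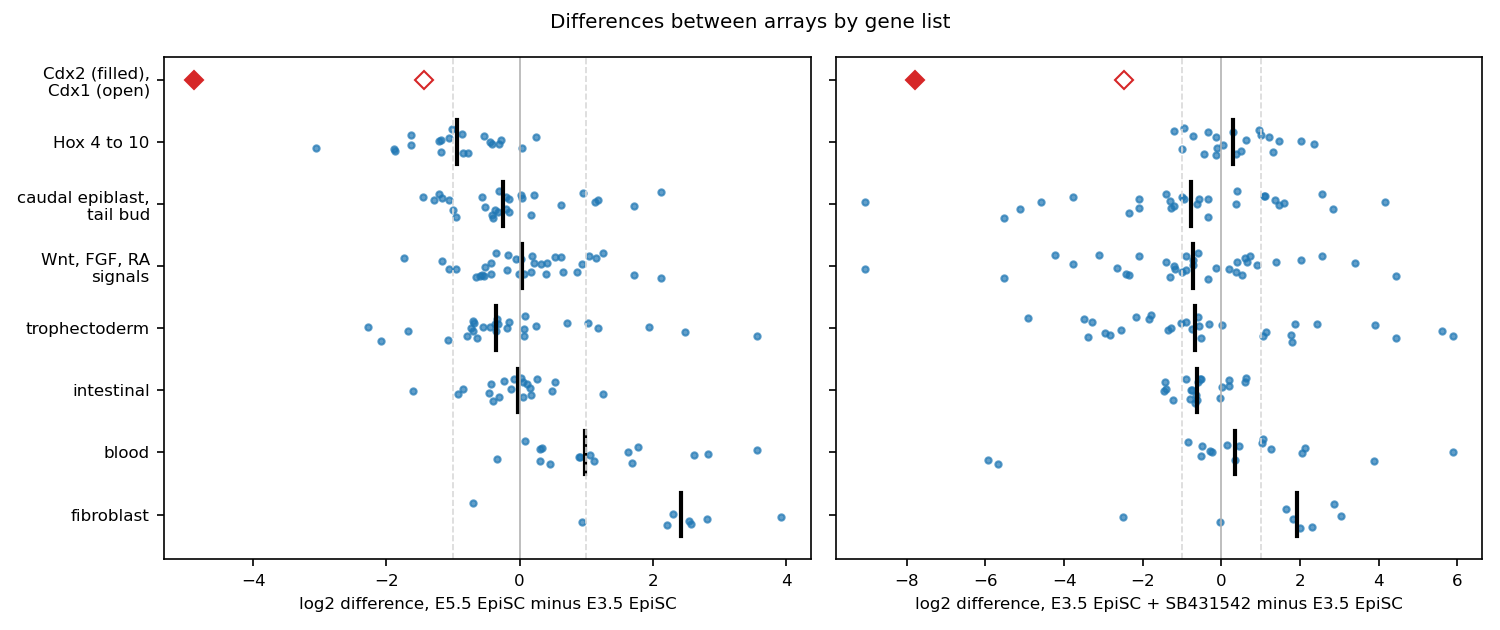
Log2 differences between arrays for the genes of each list (points, 1 per gene above background on at least 1 of the 2 arrays, with the list's median as a black bar) and for Cdx2 and Cdx1 (diamonds). On the left, E5.5 EpiSC minus E3.5 EpiSC, the Hox median is -0.94 and the fibroblast median 2.43; on the right, E3.5 EpiSC + SB431542 minus E3.5 EpiSC, the Hox median is 0.29 (-0.11 with normexp). Dashed lines mark 2-fold.

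Markers of fibroblasts also differed between arrays, not always where Cdx2 did. Of 8 (Col1a1, Col1a2, Col3a1, Thy1, Postn, Tagln, Dcn, Lum), all above background on every array, 6 were higher and 0 lower by 2-fold in E5.5 EpiSC than in E3.5 EpiSC (6.17% and 3.86% of all genes), with a median of 2.43. In E3.5 EpiSC + SB431542 against E3.5 EpiSC, 6 were higher and 1 lower (11.8% and 20.1% of all genes), with a median of 1.91, and normexp gave the same counts in both. In E5.5 EpiSC + SB431542 against E5.5 EpiSC, where Cdx2 was also lower, 1 was higher and 5 lower (6.69% and 9.07% of all genes), with a median of -1.34. In E3.5 EpiSC against mES, where Cdx2 was 36.4-fold higher, 1 was higher and 2 lower (10.9% and 12.6% of all genes), with a median of -0.27. In E5.5 EpiSC against mES, where Cdx2 differed by 0.29, 8 of 8 were higher (11.9% of all genes). Their summed level, in multiples of the 75th percentile, was 75.6 in E5.5 EpiSC + SB431542 and 78.2 in E5.5 EpiSC, 44.5 in E3.5 EpiSC + SB431542 and 35.4 in E3.5 EpiSC, and 25.5 in mES + SB431542 and 15.2 in mES. Their part in the Cdx2, Hox and blood gene differences was not tested.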

How the data were processed

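Total RNA labelled with Cy3 was hybridised to 6 one-colour arrays, and groups come from the labels. The deposited spot intensity was corrected for background and spatial trend in Agilent Feature Extraction, whose version is 10.7.1.1 per the file headers and 9.1 per the submitters' processing notes. The deposited linear value table matched it at 45018 of 45018 spots per array. The array headers name another build than GRCm38.p6.

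Control and outlier spots were left out, and repeats averaged. Values are log2 of the intensity minus that of the array's 75th percentile. Of 41174 probes, 24375 were named through their accession in the RefSeq gene table, since the files used here hold no gene name, and each gene took its brightest probe. Where the dimmer array was not well above background, "at least N-fold" takes, on that array, the higher of its own signal and the lowest signal well above background.

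The members, the 12 gene lists and the tests were chosen with earlier results of these data known. Genes were named by a rule: the Cdx and other ParaHox genes, the 2 nearest measured genes on each side, the 5 closest profiles, up to 4 passing members of a list per direction, and 18 fixed genes. A gene that this rule names is not reported here. The test was limma 3.58.1 under R 4.3.3 (lmFit, eBayes, Benjamini-Hochberg over 16156 genes above background on at least 1 array), in 4 arms with 2 residual degrees of freedom and the lone mES arrays assumed to vary like the EpiSCs. The treated and untreated array of a line come from the same line, which pairs them. The fit was tested on simulated data with independent noise and no difference between the EpiSC lines. That run does not show how the fit behaves where lines stand as replicates. Alternatives were normexp (offset 50, on the median signal and median background, as no mean signal was given, with 2 spots of the E5.5 EpiSC array, whose background exceeded their signal, left out of the fit), quantile and median scaling, a floor, other filters, the mean over probes, the line as a block and each array left out. A fit with slide as a block leaves no residual degrees of freedom.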

Additional observations from a re-analysis of the deposited data

Results flagged for a closer look

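The difference that Cdx1 showed with SB431542 had opposite signs in different lines. It was 0.72 in E5.5 EpiSC and -2.48 in E3.5 EpiSC, which are 3.21 apart on the log2 scale, and 0.72 in E5.5 EpiSC and -0.64 in mES, which are 1.37 apart. With 1 array per group neither contrast was tested. The E5.5 EpiSC and E3.5 EpiSC + SB431542 signals were not well above background, and with normexp the E5.5 value was -0.08.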

How the results depend on the processing

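Quantile and median scaling moved each of the 12 Cdx1 and Cdx2 differences by less than its spot error. Quantile scaling changed the median of all genes in E3.5 EpiSC with SB431542 against without to -0.17, against -0.30 with the 75th percentile. Normexp, which raises weak signals, moved 10 of the 12. For Cdx2 it gave -1.15 in E5.5 EpiSC and -5.34 in E3.5 EpiSC with SB431542, 4.17 for E3.5 EpiSC over mES and -4.02 for E5.5 EpiSC over E3.5 EpiSC. The signs of these 4 were kept. Under it 1 Cdx probe passed 2-fold with SB431542 in E3.5 EpiSC (2 otherwise), 0 in E5.5 EpiSC against mES (1 otherwise) and 1 in E5.5 EpiSC against E3.5 EpiSC (2 otherwise). Genes past 2-fold numbered 181 in mES with SB431542 (410 otherwise), 2482 in E3.5 EpiSC against mES (3749 otherwise) and 684 in E5.5 EpiSC against E3.5 EpiSC (1567 otherwise). In E3.5 EpiSC with SB431542, normexp turned Hand1 to -0.0024 and Hoxc8 to -0.25. With a floor, Cdx2 in E5.5 EpiSC with SB431542 was -2.29 and Cdx1 in E3.5 EpiSC with SB431542 was -1.58.

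For EpiSCs against mES, limma called 242 genes (63 higher, 179 lower), 611 with normexp (274 higher, 337 lower), 540 with the line as a replicate block, and 0 to 216 with an array left out. The 0 came without either treated EpiSC array, where 3300 genes had an unadjusted p under 0.05 in each case. For SB431542 in EpiSCs it called 338, 846 with normexp, 540 among genes above background on all 6 arrays, 931 with the line as a replicate block, and 0 to 245 with an array left out. The 0 came without E5.5 EpiSC + SB431542 (5035 at an unadjusted p under 0.05) and without E3.5 EpiSC + SB431542 (2440), and without E3.5 EpiSC it called 196. The 24 fitted values of list genes that passed lost their call without either treated EpiSC array and kept it under the replicate block and normexp. Of these 24, 2 lost it with quantile scaling, 2 with the mean over probes and 1 with no filter on dim genes. Some also lost it without an untreated EpiSC array. For EpiSCs against mES, the replicate block compares mES with the fitted E3.5 EpiSC level alone. Its 540 calls and the calls kept under it are thus not for the mean of both lines. Normexp counts within gene lists were added after seeing the data. The cause of these changes was not tested. No deposited value gives the spread between cultures of a group, and signals near background, which include Cdx4 on all 6 arrays and Cdx1 on 2, have no firm size.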
